A study of Homo sapiens with 12 samples.

Results

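Immediate early genes and the RNA-binding protein gene ZFP36L1 were followed in HepG2 cells, an established human liver cancer line. The members were the rows of the deposited count table named ZFP36L1, JUN, FOS, EGR1, IER2, IER3, MYC or KLF6. Of these 8 genes, 6 were found among the 10940 genes kept, and all 6 passed the filter on low counts, which left 10459 genes for the tests. The levels of FOS and IER3 are not analysed here. The 6 genes were ZFP36L1 (ENSG00000185650), JUN (ENSG00000177606), KLF6 (ENSG00000067082), EGR1 (ENSG00000120738), IER2 (ENSG00000160888) and MYC (ENSG00000136997).

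Wild-type HepG2 cells were seeded in EMEM, the maintenance medium, and moved after 24 h to 1 of 4 media, each with 10% heat-inactivated fetal bovine serum. The media were EMEM again, Plasmax (a medium modelled on the nutrients of human plasma), Plasmax prepared without trace elements (Plasmax-TE), and the same trace-element-free medium with iron added (Plasmax-TE+Fe). Fresh medium was given after 48 h and RNA was taken at 96 h, so the levels describe cells long after the medium change. Each medium had 3 libraries, 12 in all, made by QuantSeq, which counts messenger RNA from its 3′ end. The dose and form of the added iron are not given in the sources used here. All cells were of 1 line. Whether the 3 libraries of a medium stem from separate cultures is not stated in the labels, so p-values cover only the spread from library to library, which could be technical.

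Immediate early genes are those whose transcription starts soon after a growth factor or stress signal without new protein synthesis. Many encode transcription factors, and their messengers are short-lived because AU-rich elements in the 3′ end draw decay factors. ZFP36L1 encodes such a decay factor: it binds AU-rich elements and recruits the CCR4-NOT deadenylase complex, and it is itself induced by many of the signals that induce JUN or EGR1. In the liver, genes of this class are known for their response to partial hepatectomy and growth factors.

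Total counts per library ran from 1562125 to 2384090. Levels are given in CPM, a gene's count over the library's total count on the usual CPM scale. The 8 hepatocyte markers looked at (ALB, AFP, APOA1, APOB, TTR, SERPINA1, HNF4A and FGB) were all detected. Of the markers of blood, fibroblast and endothelial cells, CD14 reached at most 9.7 CPM and COL1A1 at most 8.36 CPM, and PTPRC, COL3A1, PECAM1 and VWF are not analysed here. The summed level of the 8 hepatocyte markers ran from 30800 to 33800 CPM in EMEM, from 10000 to 11200 CPM in Plasmax, from 18600 to 23000 CPM in Plasmax-TE and from 14400 to 16600 CPM in Plasmax-TE+Fe. The sum does not stand for each marker: ALB alone had means of 17900 CPM in EMEM and 4050 CPM in Plasmax. In Plasmax against EMEM edgeR called 5 of the 8 lower, SERPINA1 higher, and HNF4A and FGB in neither direction. Of all genes, 21.4% were called in that comparison. FGB had its highest mean, 1490 CPM, in Plasmax-TE. The part of the summed level in the results on the immediate early genes was not tested. The first replicate of Plasmax-TE and the second of Plasmax-TE+Fe stood apart on the second principal component of all genes (17.6% of the variance), at -35.5 and -32, against -8.11 to 19.6 for the other 10 libraries. Results that rest on them are given with and without them.

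The promoters of ZFP36L1, JUN and KLF6, the 3 genes whose level differed between media as a whole, each held a match to TGACNTCA, the cyclic AMP response element and its JUN-type variant, bound by dimers of the CREB, ATF and JUN families. The promoter of EGR1 held 2 CArG boxes, the sites of serum response factor. EGR1 was not called over the 4 media (edgeR adjusted p = 0.057), but was called in some alternative analyses. The stretches below come from the RefSeq promoter table of build GRCh38.p14, read 5′ to 3′ on the gene's strand, with the match in capitals, and positions are counted from the transcription start (position 1), with no position 0.
ZFP36L1, chr14:68793450-68793479, minus strand, positions -63 to -34: agtggaatgagTGACGTCAcagccgcgctc
JUN, chr1:58784096-58784125, minus strand, positions -78 to -49: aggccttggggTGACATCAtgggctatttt
KLF6, chr10:3785363-3785392, minus strand, positions -183 to -154: ttggccggagcTGACATCAtcggcgcgcag
EGR1, chr5:138465370-138465409, plus strand, positions -109 to -70: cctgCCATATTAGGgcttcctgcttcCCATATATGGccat

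The ZFP36L1 match starts at position -52, the JUN match at -67 and the KLF6 match at -172. In the GENCODE annotation of the same build, the ZFP36L1 and JUN stretches also lie in exon 1 of a longer transcript model (ZFP36L1-201 and JUN-201), in its untranslated part, and the KLF6 and EGR1 stretches lie in no exon. Both strands of 300-base windows were searched, 250 bases before and 50 bases after each start. A match to TGACNTCA was held by 7.72% of the 35116 windows in the table and a CArG box by 1.29%. TGANTCA, the AP-1 element, was in 7.71% of windows and in none of those of the 6 members of the rule with a table entry. Of those 6, ZFP36L1 had 2 windows, of which the downstream one is shown. Another 3 motifs were searched. GCGNGGGCG, the EGR site (9.43% of windows), was matched in the shown ZFP36L1 window, in KLF6 and in EGR1. Of the metal response element spellings, TGCGCNC (20% of windows) was matched in those same 3 windows, and TGCACNC (12.1%) in EGR1 and in the other ZFP36L1 window. JUN, IER2 and FOS held none of these last 3. IER2, FOS and the other ZFP36L1 window held no TGACNTCA, TGANTCA or CArG box. IER3 and MYC had no entry used here. No binding or chromatin was measured in these cells, so the matches only describe the sequence.

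ZFP36L1 was highest in Plasmax and lowest in Plasmax-TE, with a mean 3.34 times lower without the trace elements in the fit. Its level was 267, 296 and 240 CPM in the 3 EMEM libraries, 666, 735 and 506 CPM in Plasmax, 174, 205 and 185 CPM in Plasmax-TE and 264, 216 and 329 CPM in Plasmax-TE+Fe. Every Plasmax library lay above all 9 libraries of the other media, and every Plasmax-TE library lay below all EMEM and Plasmax-TE+Fe libraries. The means were 268 ± 27.8 CPM in EMEM, 636 ± 118 in Plasmax, 188 ± 15.5 in Plasmax-TE and 270 ± 56.7 in Plasmax-TE+Fe (SD, n = 3 each). ZFP36L1 had the deepest counts of the 6 genes, from 305 to 1408 per library, so counting error alone was 2.67% to 5.73%.

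ZFP36L1 rose in Plasmax against EMEM by a log2 fold change of 1.19 ± 0.17 (SE; edgeR adjusted p = 5e-05). In Plasmax-TE against Plasmax its log2 fold change was -1.74 ± 0.17 (adjusted p = 3.3e-06). Against Plasmax, Plasmax-TE+Fe was also lower, at -1.23 ± 0.17 (adjusted p = 0.00056). These 3 calls were made in all 22 alternative analyses. In the order of its levels, Plasmax differed from the next medium, Plasmax-TE+Fe. Plasmax-TE+Fe and EMEM differed by -0.03 (95% interval -0.39 to 0.32, adjusted p = 0.93). EMEM and Plasmax-TE did not differ at the threshold either: the log2 fold change of Plasmax-TE against EMEM was -0.55 ± 0.17 (adjusted p = 0.073), a call made in 3 of 22 alternatives.

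**Figure D1:**
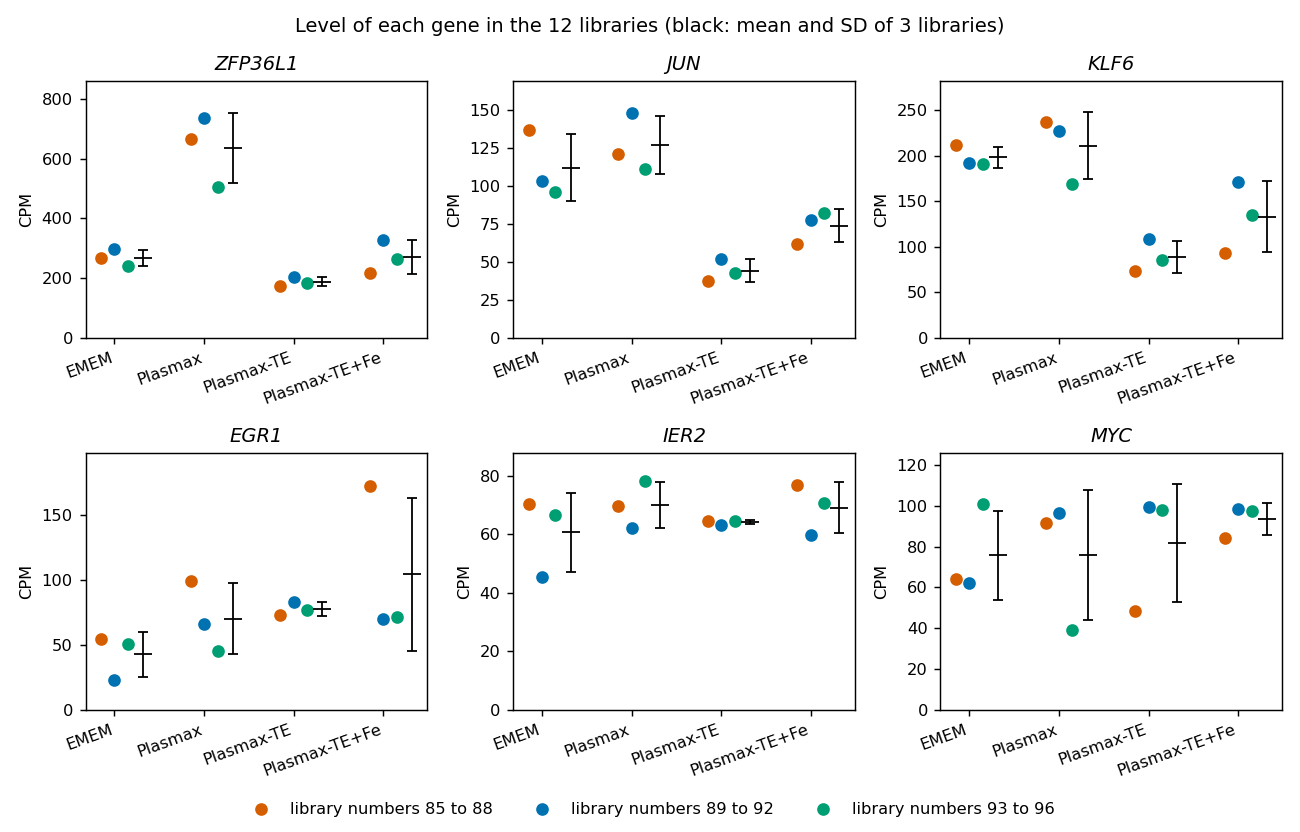
Level in CPM (y axis, from 0) of the 6 genes in the 3 libraries of each medium (x axis); colours mark the 3 runs of consecutive library numbers in the labels, each with 1 library of every medium, and the black bar gives the mean ± SD. ZFP36L1 lies between 506 and 735 CPM in Plasmax and at most at 329 CPM elsewhere, JUN and KLF6 are lowest in Plasmax-TE, and EGR1 has 1 Plasmax-TE+Fe library at 172 CPM.

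JUN, the core subunit of the AP-1 transcription factor, was as high in EMEM as in Plasmax within the spread of the libraries and lowest without trace elements. Its level was 137, 103 and 96 CPM in EMEM, 121, 148 and 111 CPM in Plasmax, 37.1, 52.1 and 42.9 CPM in Plasmax-TE and 82, 61.6 and 77.5 CPM in Plasmax-TE+Fe. The EMEM and Plasmax libraries overlapped, all Plasmax-TE libraries were below all others, and the Plasmax-TE+Fe libraries lay between, with no overlap on either side. The means were 112 ± 22, 127 ± 19.4, 44 ± 7.54 and 73.7 ± 10.7 CPM in that order of media (SD, n = 3 each), from 65 to 284 counts per library.

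The log2 fold change of JUN in Plasmax-TE was -1.50 ± 0.19 against Plasmax (edgeR adjusted p = 6.1e-05) and -1.37 ± 0.19 against EMEM (adjusted p = 0.00019), both called in all 22 alternatives. Plasmax against EMEM gave 0.13 ± 0.18 (95% interval -0.25 to 0.51, adjusted p = 0.66). JUN was also lower in Plasmax-TE+Fe than in Plasmax, at -0.77 ± 0.18 (adjusted p = 0.042), and than in EMEM, at -0.64 ± 0.18 (adjusted p = 0.031). The first of these was lost without any 1 of the Plasmax or Plasmax-TE+Fe libraries, with an adjusted p of up to 0.26 (without Plasmax replicate 2). It was also lost without EMEM replicate 2 or 3 or Plasmax-TE replicate 3, and with a replicate block (0.074). Leaving out both libraries that stood apart (0.064) or fitting only the 6 libraries compared (0.066) lost it as well. The second was called in 17 of 22, and was lost without EMEM replicate 1 (0.18) or 2 (0.051), without Plasmax-TE+Fe replicate 2 (0.095) or 3 (0.081), and without both libraries that stood apart (0.054).

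KLF6, a zinc finger transcription factor of the Krüppel-like family that is expressed in many tissues and induced early by injury and growth signals, followed the order of JUN. Its level was 212, 192 and 191 CPM in EMEM, 237, 227 and 169 CPM in Plasmax, 73, 108 and 85.8 CPM in Plasmax-TE and 135, 93.6 and 171 CPM in Plasmax-TE+Fe. The Plasmax-TE libraries lay below all EMEM and Plasmax libraries but overlapped those of Plasmax-TE+Fe. The highest Plasmax-TE+Fe library (171 CPM) lay above the lowest Plasmax library (169 CPM). The means were 198 ± 12.2, 211 ± 36.5, 88.9 ± 17.5 and 133 ± 38.7 CPM in the same order (SD, n = 3 each).

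The log2 fold change of KLF6 in Plasmax-TE was -1.22 ± 0.21 against Plasmax (edgeR adjusted p = 0.00087) and -1.19 ± 0.20 against EMEM (adjusted p = 0.0014), each called in all 22 alternatives. Plasmax against EMEM gave 0.03 ± 0.20 (95% interval -0.38 to 0.44, adjusted p = 0.94). With iron added, KLF6 did not differ at the threshold from EMEM (-0.62 ± 0.20, adjusted p = 0.056, called in 6 of 22 alternatives) or from Plasmax (-0.65 ± 0.20, adjusted p = 0.14, called in 1 of 22).

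EGR1, a zinc finger transcription factor that ERK signalling induces through serum response factor, was the most variable of the 6 genes, with a 7.59-fold range over the 12 libraries. Its level was 54.8, 22.7 and 50.5 CPM in EMEM, 99.2, 65.8 and 45.3 CPM in Plasmax, 73, 83 and 76.4 CPM in Plasmax-TE and 71, 172 and 69.5 CPM in Plasmax-TE+Fe. All Plasmax-TE and Plasmax-TE+Fe libraries lay above all EMEM libraries, and the Plasmax libraries overlapped the other 3 media. The means were 42.7 ± 17.5, 70.1 ± 27.2, 77.5 ± 5.07 and 104 ± 58.7 CPM (SD, n = 3 each). The coefficient of variation was 40.9% in EMEM, 38.8% in Plasmax and 56.4% in Plasmax-TE+Fe, while counting error was 5.61% to 13.6% over the 12 libraries. In Plasmax-TE the coefficient was 6.55%, below the counting error of those 3 libraries (8.84%, 7.35% and 8.28%).

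EGR1 was higher in Plasmax-TE+Fe than in EMEM, by a log2 fold change of 1.23 ± 0.33 (edgeR adjusted p = 0.02). That call was made in 18 of 22 alternatives. It was lost without Plasmax-TE+Fe replicate 2, the library at 172 CPM (0.72, adjusted p = 0.1), without EMEM replicate 2 (0.90, adjusted p = 0.12), without both libraries that stood apart (0.73, adjusted p = 0.085) and in DESeq2 (1.22, adjusted p = 0.062). Plasmax-TE against EMEM gave 0.84 ± 0.33 (adjusted p = 0.17, called in 3 of 22 alternatives). No neighbours in the order of EGR1 levels (Plasmax-TE+Fe, Plasmax-TE, Plasmax, EMEM) differed at the threshold: the adjusted p was 0.77, 0.78 and 0.17 from the top pair down.

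IER2 encodes a small nuclear protein induced early by growth factors, and MYC encodes the basic helix-loop-helix factor that drives ribosome and metabolic genes. Neither was called in any pair of media or in any of the 22 alternatives. IER2 was at 70.4, 45.3 and 66.4 CPM in EMEM, 69.8, 62.2 and 78.1 CPM in Plasmax, 64.5, 63.3 and 64.4 CPM in Plasmax-TE and 70.6, 76.8 and 59.6 CPM in Plasmax-TE+Fe. Its libraries overlapped in every pair of media, and its highest and lowest medium means, 70 ± 7.97 CPM in Plasmax and 60.7 ± 13.5 CPM in EMEM (SD, n = 3 each), were 1.15-fold apart. The 95% interval for Plasmax-TE against Plasmax was -0.51 to 0.25 on the log2 scale, which does not reach the -1.22 of KLF6. The 3 Plasmax-TE libraries differed by a coefficient of variation of 1.05%, below the counting error of IER2 (7.58% to 9.62%).

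MYC was at 64.2, 62.1 and 101 CPM in EMEM, 91.5, 96.6 and 39.1 CPM in Plasmax, 48.5, 99.2 and 97.9 CPM in Plasmax-TE and 97.5, 84.4 and 98.3 CPM in Plasmax-TE+Fe. The media overlapped in every pair, and 1 library lay well above or below the others of its medium in EMEM (replicate 3, high), Plasmax (replicate 3, low) and Plasmax-TE (replicate 1, low). The means were 75.6 ± 21.6, 75.7 ± 31.9, 81.8 ± 28.9 and 93.4 ± 7.85 CPM (SD, n = 3 each). The coefficient of variation reached 42.1% in Plasmax, against a counting error of 6.57% to 10.8%. The 95% interval for Plasmax-TE against Plasmax was -0.44 to 0.77 on the log2 scale.

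Over the 4 media together, 3 of the 6 genes were called: ZFP36L1 (edgeR adjusted p = 1.9e-06), JUN (4.2e-05) and KLF6 (0.00055). EGR1 (0.057), IER2 (0.84) and MYC (0.79) were not. Of all genes tested, 18% were called there. In Plasmax against EMEM only ZFP36L1 was called, higher, where 21.4% of all genes were called, 9.9% higher and 11.5% lower. In Plasmax-TE against Plasmax 3 of the 6 fell (ZFP36L1, JUN and KLF6) and 0 rose, where 11.2% of all genes were called, 5.61% higher and 5.63% lower. In Plasmax-TE+Fe against Plasmax 2 of the 6 were lower (ZFP36L1 and JUN), where 1.2% of all genes were called, 0.507% higher and 0.698% lower. In Plasmax-TE against EMEM 2 of the 6 were lower (JUN and KLF6), with 4.81% of all genes called, 1.62% higher and 3.19% lower. In Plasmax-TE+Fe against EMEM JUN was lower and EGR1 higher, with 9.65% of all genes called, 3.67% higher and 5.98% lower. Since the comparisons share libraries, their calls are not separate evidence of each other.

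**Figure D2:**
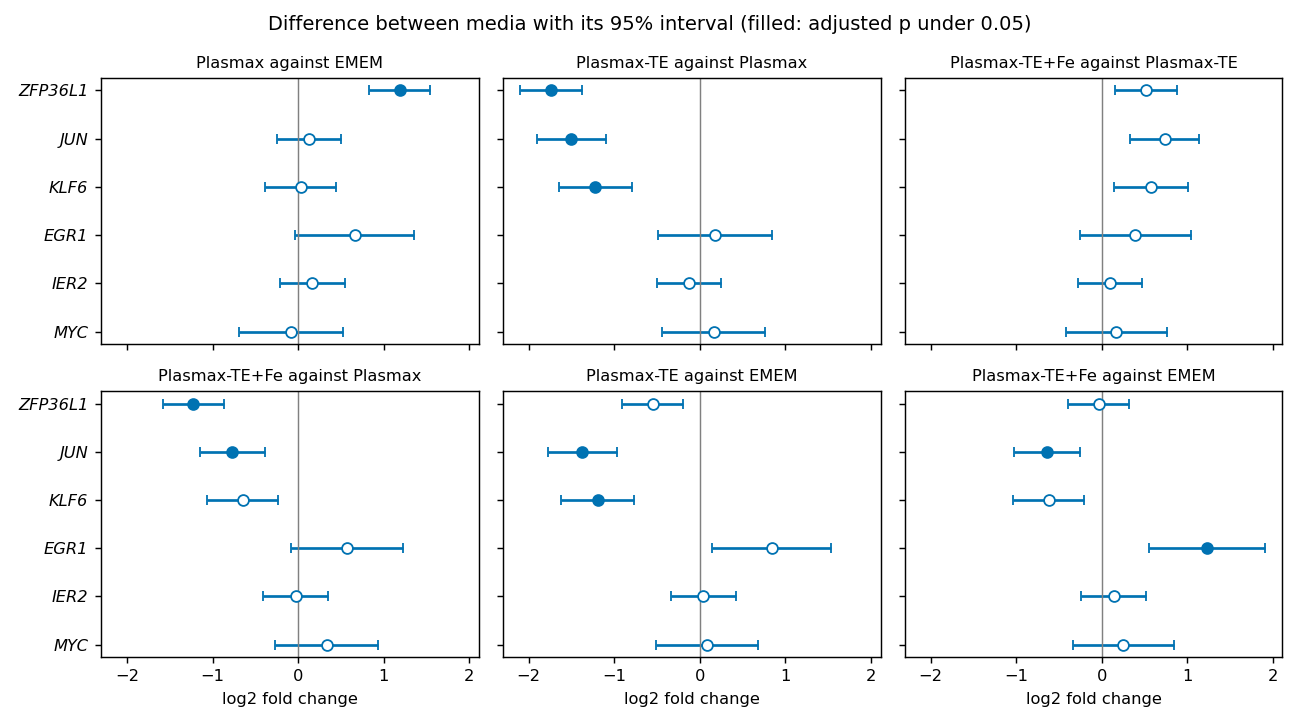
Log2 fold change (x axis) of each gene (y axis) in the 6 comparisons of media with its 95% interval from the edgeR fit; filled points have an adjusted p under 0.05. ZFP36L1 is filled in 3 panels, JUN in 4, KLF6 in 2, EGR1 in 1, and IER2 and MYC in 0.

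Adding iron to the trace-element-free medium left the 3 genes between their Plasmax-TE and Plasmax levels, but no member passed the test. In Plasmax-TE+Fe against Plasmax-TE the log2 fold change was 0.52 ± 0.17 for ZFP36L1 (edgeR adjusted p = 0.29), 0.73 ± 0.20 for JUN (adjusted p = 0.13) and 0.58 ± 0.21 for KLF6 (adjusted p = 0.34). The Plasmax-TE+Fe libraries lay above the Plasmax-TE libraries without overlap for ZFP36L1 and JUN, and overlapped for KLF6. A lack of overlap of 3 against 3 libraries is weak on its own, and the share of all genes that show it was not counted. The count of members called was 0 in edgeR, in DESeq2 and in limma-voom. An unadjusted edgeR p under 0.05 was found for 3 of the 6 (the same ones), beside 974 of all 10459 genes. Of all genes, 0.258% were called (27 genes), 0.0861% higher and 0.172% lower. The 27 became 99 without both libraries that stood apart and 152 with a library-number block. EGR1 (0.39, 95% interval -0.26 to 1.04), IER2 (0.10, -0.28 to 0.48) and MYC (0.17, -0.42 to 0.76) had intervals that include 0.

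The iron comparison turned on Plasmax-TE+Fe replicate 2. In that library and in Plasmax-TE replicate 1, the libraries that stood apart, ZFP36L1, JUN, KLF6 and MYC each had the lowest level of their medium. Without Plasmax-TE+Fe replicate 2, all 3 genes were called, at 0.68 for ZFP36L1 (edgeR adjusted p = 0.034), 0.87 for JUN (0.022) and 0.79 for KLF6 (0.025). How many of all genes were called in that fit is not reported here. Without both libraries that stood apart the values were 0.59, 0.74 and 0.64 with adjusted p of 0.086, 0.083 and 0.082, so 0 were called. Within each of the 3 runs of library numbers, Plasmax-TE+Fe lay above Plasmax-TE for all 3 genes, by 0.31, 0.68 and 0.51 (log2 of the CPM ratio) for ZFP36L1, 0.73, 0.57 and 0.93 for JUN and 0.36, 0.67 and 0.65 for KLF6. It lay above in 1 run for EGR1 and for MYC, and in 2 runs for IER2. The 3 genes were singled out as low in these same Plasmax-TE libraries, which favours a rise from them, so the runs are a description with no test. On the CPM means, Plasmax-TE+Fe recovered 18.2% of the gap between Plasmax and Plasmax-TE for ZFP36L1, 35.9% for JUN and 36.1% for KLF6. With 1 library left out the share ran from 11.6% (without Plasmax-TE+Fe replicate 3) to 24.2% (without replicate 2) for ZFP36L1, from 30.9% to 43.2% for JUN, and from 20.8% to 52.5% for KLF6 (without the same replicates 3 and 2). These shares are a description with no test, since both differences use the same Plasmax-TE libraries.

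**Figure D3:**
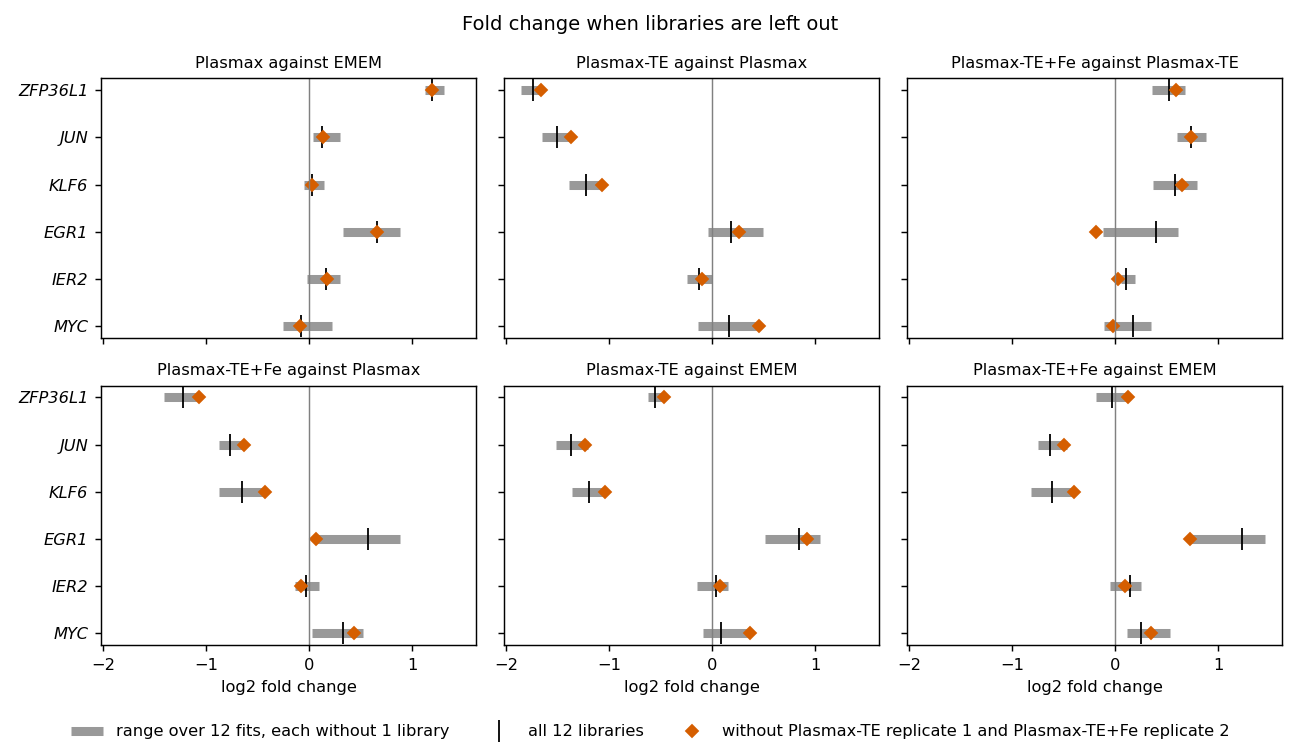
Log2 fold change (x axis) of each gene (y axis) in the 6 comparisons: black ticks show all 12 libraries, grey bars the range over 12 fits that each leave out 1 library, and orange diamonds the fit without both libraries that stood apart. The falls of ZFP36L1, JUN and KLF6 in Plasmax-TE against Plasmax stay below -1 throughout, while EGR1 with iron against EMEM moves from 1.23 to 0.73 without both libraries.

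The wider early-response program was described through lists of related genes, 58 of which beside the members were tested in the AP-1, EGR, KLF, ERK feedback and other immediate early lists. Of these 58, 15 were higher and 10 lower in Plasmax against EMEM, and 4 were higher and 15 lower in Plasmax-TE against Plasmax. Over all genes the shares were 9.9% higher and 11.5% lower in the first comparison and 5.61% and 5.63% in the second, and the lists that follow are to be read beside them. The median log2 fold change of the 58 was 0.02 in the first comparison and -0.35 in the second, beside -0.01 and 0.02 over all genes. With both libraries that stood apart left out, the counts were 16 higher and 16 lower, and 5 higher and 11 lower. That fit called 2998 of all genes in the first comparison and 1168 in the second, beside 2233 and 1176 with all 12 libraries. In Plasmax-TE+Fe against Plasmax-TE edgeR called 0 of the 58, DESeq2 called 4 and limma-voom 0. In edgeR 19 of the 58 had an unadjusted p under 0.05, beside 974 of all 10459 genes. Without both libraries that stood apart, edgeR called 3 higher and 1 lower there, and 99 of all genes, beside 27 with all 12 libraries. The median of the 58 was 0.28 in that comparison with all 12 libraries, beside 0.002 over all genes.

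Of the AP-1 subunits, 7 were tested. In Plasmax-TE against Plasmax 3 of the 7 fell and 0 rose, with a list median of -0.87. They were JUN, ATF3, a stress-induced partner of JUN, and FOSL1, a FOS-related partner. ATF3 had means of 28 CPM in Plasmax and 8.05 CPM in Plasmax-TE, a log2 fold change of -1.77 ± 0.34 (edgeR adjusted p = 0.0024). FOSL1 had 20.1 and 8.79 CPM (-1.19 ± 0.32, adjusted p = 0.022) and was higher in Plasmax than in EMEM (1.52 ± 0.33, adjusted p = 0.0027). JUND, the subunit whose expression is usually steady, went the other way from FOSL1 between those media: it was at 289 ± 7.98 CPM in EMEM and 188 ± 14.5 CPM in Plasmax (SD, n = 3 each; -0.66 ± 0.16, adjusted p = 0.0053).

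Of the Krüppel-like factors, 9 were tested, and in Plasmax-TE against Plasmax 3 fell and 1 rose. KLF6, KLF5 (-1.85 ± 0.42, edgeR adjusted p = 0.0075) and KLF7 (-1.15 ± 0.36, adjusted p = 0.044) were lower and KLF15, a regulator of fasting metabolism in the liver, was higher (1.36 ± 0.44, adjusted p = 0.049). KLF7 was called in 8 of 22 alternatives and not without both libraries that stood apart (-1.03, adjusted p = 0.1), and KLF15 was called in 13 of 22. In Plasmax against EMEM 3 were higher (KLF10, KLF7 and KLF5) and KLF15 was lower. KLF10, which transforming growth factor beta induces early, rose from 13.5 to 46.3 CPM (1.72 ± 0.24, adjusted p = 4.8e-05), and its mean in Plasmax-TE, 36.2 CPM, also stayed above that in EMEM (1.39 ± 0.25, adjusted p = 0.002).

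ERK signalling induces its own inhibitors, among them DUSP phosphatases, and 11 genes of this feedback list were tested. In Plasmax-TE against Plasmax 2 fell and 1 rose. DUSP5, a nuclear ERK phosphatase, had means of 8.51 CPM in EMEM, 56 in Plasmax, 6.55 in Plasmax-TE and 16.9 in Plasmax-TE+Fe. Its log2 fold change was 2.62 ± 0.38 in Plasmax against EMEM (edgeR adjusted p = 5.8e-05) and -3.02 ± 0.40 in Plasmax-TE against Plasmax (adjusted p = 8.3e-05), and like ZFP36L1 it had its highest mean in Plasmax. DUSP6, the cytoplasmic ERK phosphatase, was at 428 CPM in Plasmax and 269 CPM in Plasmax-TE (-0.64 ± 0.19, adjusted p = 0.032), a call lost without both libraries that stood apart (-0.46, adjusted p = 0.05), which left 1 lower gene in the list. DUSP7 was higher (0.83 ± 0.26, adjusted p = 0.045) but was called in only 8 of 22 alternatives.

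Of the other immediate early genes, 32 were tested, IER2 among them. In Plasmax against EMEM 9 rose and 7 fell, and in Plasmax-TE against Plasmax 2 rose and 9 fell, with a list median of -0.31. Without both libraries that stood apart the counts were 10 and 12 in the first comparison and 3 and 7 in the second. Over all genes that fit called 2998 and 1168, beside 2233 and 1176 with all 12 libraries. PMAIP1, which encodes the pro-apoptotic protein NOXA, had means of 3.57 CPM in EMEM, 32.7 in Plasmax, 2.66 in Plasmax-TE and 8.7 in Plasmax-TE+Fe, and its log2 fold change in Plasmax-TE against Plasmax was -3.54 ± 0.35 (edgeR adjusted p = 3.3e-06). TRIB1, a pseudokinase that promotes C/EBPα degradation, had 278 CPM in Plasmax and 113 CPM in Plasmax-TE (-1.28 ± 0.22, adjusted p = 0.001). IER5 (-0.97 ± 0.19, adjusted p = 0.0022) and PHLDA1 (-0.64 ± 0.14, adjusted p = 0.005) were lower as well. SGK1, a kinase gene induced by glucocorticoids and osmotic stress, fell in Plasmax against EMEM: its mean was 98.7 CPM in EMEM and 15.4 CPM in Plasmax (-2.76 ± 0.24, adjusted p = 1.8e-07).

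**Figure D4:**
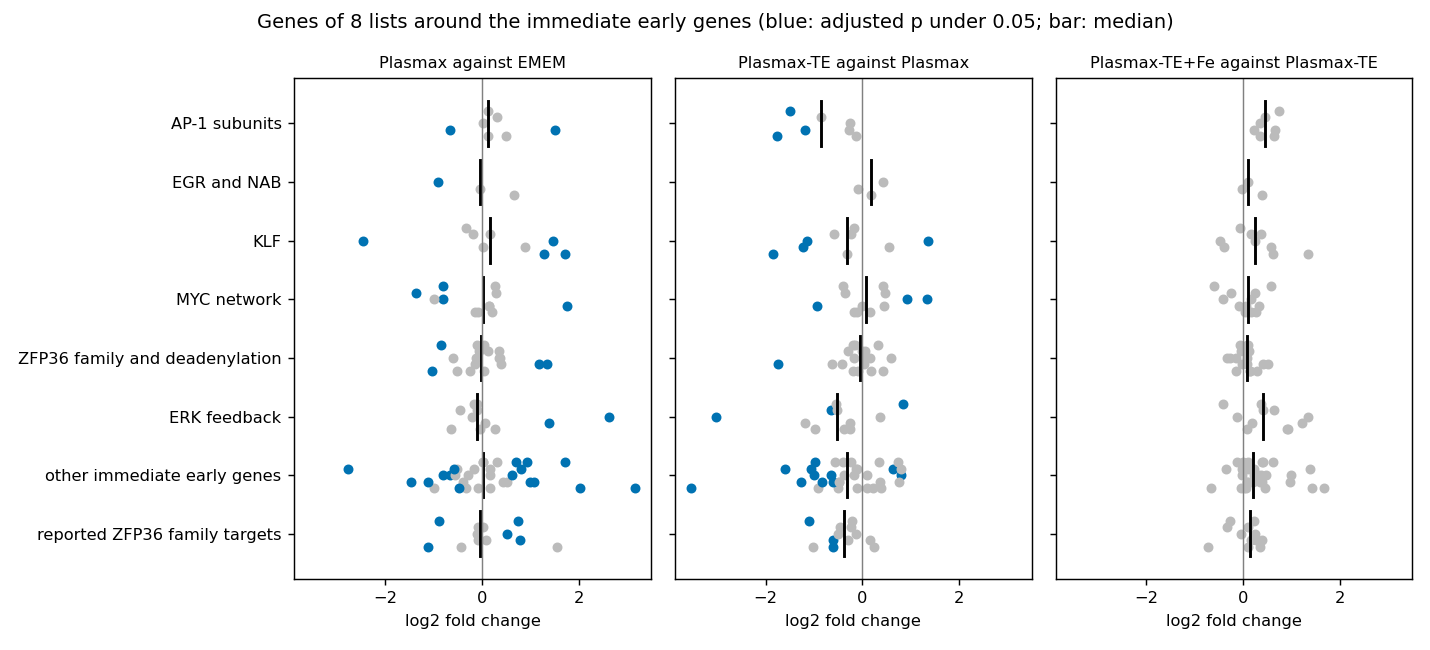
Log2 fold change (x axis) of the tested genes of 8 lists (y axis) in 3 comparisons; each point is a gene, blue where the adjusted p is under 0.05, vertical offsets only separate the points, and the bar is the list median. In Plasmax-TE against Plasmax the AP-1 median is -0.87, the ERK feedback median -0.52 and that of the other immediate early genes -0.31, and the iron comparison has 0 blue points.

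Of 18 tested genes of the ZFP36 family and the deadenylation machinery with which it acts, ZFP36L1 was the only one called in Plasmax-TE against Plasmax (11.2% of all genes), and the list median was -0.05. Its paralogue ZFP36L2 had means of 140 ± 19.4 CPM in EMEM, 134 ± 11.8 in Plasmax, 148 ± 4.34 in Plasmax-TE and 134 ± 12.3 in Plasmax-TE+Fe (SD, n = 3 each). For ZFP36L2 the log2 fold change in Plasmax-TE against Plasmax was 0.15, with a 95% interval of -0.16 to 0.45, beside -2.10 to -1.38 for ZFP36L1. In Plasmax against EMEM 2 of the 18 were higher (ZFP36L1 and BTG2, an antiproliferative deadenylase adaptor) and 2 lower (CNOT8, a deadenylase, and TOB1, an adaptor of the complex), where 21.4% of all genes were called. Without both libraries that stood apart, 3 were higher and 3 lower, and 2998 of all genes were called, beside 2233 with all 12 libraries. CNOT8 had a log2 fold change of -1.02 ± 0.22 (edgeR adjusted p = 0.002) and TOB1 of -0.85 ± 0.18 (adjusted p = 0.0023).

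Of 12 tested genes whose messengers are reported targets of the ZFP36 family, 3 fell and 0 rose in Plasmax-TE against Plasmax, the comparison in which ZFP36L1 fell and 5.63% of all genes were lower. Among them were HIF1A, the hypoxia-inducible factor subunit (-1.09 ± 0.23, edgeR adjusted p = 0.0044), and CCND1, which encodes cyclin D1 (-0.61 ± 0.17, adjusted p = 0.024). CCND1 was called in 18 of 22 alternatives there. Without both libraries that stood apart, 2 of the 12 fell, where 1168 of all genes were called in either direction. In Plasmax against EMEM, where ZFP36L1 rose, 3 of the 12 were higher, among them CCND1 and HIF1A, and 2 were lower, beside 9.9% and 11.5% of all genes. TFRC, the transferrin receptor, was 1 of the lower genes, with 150 ± 18.7 CPM in EMEM and 84.6 ± 11.1 CPM in Plasmax (SD, n = 3 each; -0.88 ± 0.23, adjusted p = 0.0087). Messenger stability was not measured.

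MYC binds DNA with MAX and competes with the MXD repressors, and 12 genes of this network were tested. In Plasmax against EMEM 1 was higher and 3 lower: MYCL rose, and MXD4 (-1.36 ± 0.18, edgeR adjusted p = 1.9e-05), MLXIPL, the glucose-sensing factor ChREBP of the liver (-0.79 ± 0.19, adjusted p = 0.0055), and its partner MLX fell. In Plasmax-TE against Plasmax MLX (0.92 ± 0.24, adjusted p = 0.019) and MXD3 (1.33 ± 0.37, adjusted p = 0.027) were higher and MXD1 lower (-0.94 ± 0.26, adjusted p = 0.026). There MLX was called in 18, MXD3 in 17 and MXD1 in 17 of 22 alternatives. MYC itself was not called in either comparison. In the EGR list, 3 genes were tested, and NAB2, a co-repressor of EGR1, was lower in Plasmax than in EMEM (-0.90 ± 0.24, adjusted p = 0.011).

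Across the 12 libraries the genes most like each member were ranked by Pearson's r of log2 CPM over the 9933 genes whose mean reached 5 CPM. The points share the 4 media and the libraries' depth and scaling, and the highest of so many values are high by selection, so the values are a description. For ZFP36L1 they were PPP2CB, a catalytic subunit of protein phosphatase 2A (r = 0.978), GABARAPL1, an autophagy protein of the ATG8 family (0.972), and MT2A, a metallothionein that binds zinc and copper (0.971). MT2A had means of 1660 ± 248 CPM in EMEM, 5190 ± 725 in Plasmax, 1050 ± 334 in Plasmax-TE and 1700 ± 506 in Plasmax-TE+Fe (SD, n = 3 each), the same order of media as ZFP36L1. GABARAPL1 had 50.2 ± 6.08, 107 ± 11.2, 40.1 ± 7.12 and 56.6 ± 18.6 CPM. Without both libraries that stood apart (10 left) r was 0.975, 0.973 and 0.976 for the 3 genes.

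JUN and KLF6 each had the other as its nearest gene (r = 0.955, Spearman's rho 0.916, and r = 0.944 without both libraries that stood apart). ANKRD1, a target of YAP signalling, was among the nearest 3 of both, at 0.928 for JUN and 0.955 for KLF6. The nearest genes of EGR1 were C17orf80 (0.916), TUT1 (0.903) and GTF2H3 (0.897), those of IER2 were DNTTIP1 (0.912), CD2BP2 (0.855) and EXOSC6 (0.825), and those of MYC were PDCD2L (0.901), C1QBP (0.888) and TXN (0.885). EGR1, IER2 and MYC were not called over the 4 media, and how much of their likeness lies between media was not tested.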

How the data were processed

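The values deposited by the authors were raw counts per gene. Per the submitters' processing notes the tools were STAR 2.7.5b, featureCounts 1.6.3, cutadapt 1.16, FastQC 0.72 and limma 3.40.6 with build hg19 (GRCh37); the annotation and whether counting used strand are not given in the sources used here. From 10994 entries (506 without a symbol), 54 repeats of an identifier were dropped. In R 4.3.3, edgeR 4.0.16 (filterByExpr with a minimum count of 10 and minimum total of 15, TMM factors, quasi-likelihood test, two-sided) was fitted to the 12 libraries, 8 residual degrees of freedom, with Benjamini-Hochberg adjustment over all 10459 genes and calls under 0.05. SEs are the absolute log2 fold change over the square root of F. An exact permutation test of 3 against 3 libraries cannot go below p = 0.1. Levels are plain CPM; fold changes use TMM factors.

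Tried beside this were DESeq2 1.42.0, limma-voom (limma 3.58.1), RLE factors, scaling by library size alone, no low-count filter, a mean of at least 5 CPM, a replicate block, a library-number block (numbers 85 to 88, 89 to 92, 93 to 96), each library left out, both libraries that stood apart left out, and only the 6 libraries compared. The code was tested on simulated data. The members and lists were chosen with earlier results of these data known. Named were the members, up to 4 genes per list and comparison with the lowest p, and the 3 genes most like each member (log2 CPM with a prior count of 2). ZFP36L2 was named after its values were seen. The values of 1 listed gene are not reported here.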

Additional observations from a re-analysis of the deposited data

How the results depend on the processing

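The calls of ZFP36L1 in Plasmax against EMEM, in Plasmax-TE against Plasmax and in Plasmax-TE+Fe against Plasmax, and those of JUN and KLF6 in Plasmax-TE against Plasmax and against EMEM, held in all 22 alternatives. Of 792 values of members under alternatives, 731 kept their direction and side of the threshold, 21 lost the call, 16 gained it and 24 changed sign, none of the last called in either analysis. The number of members called with iron against Plasmax-TE ran from 0 to 3 with 1 library left out. With iron against Plasmax it ran from 1 to 2, and was 1 with a replicate block, with both libraries that stood apart left out and with only the 6 libraries compared, and 3 with a library-number block. For Plasmax-TE against EMEM it ran from 2 to 4, and was 4 with a library-number block and with only the 6 libraries compared. With iron against EMEM it ran from 0 to 3, and was 0 with both libraries that stood apart left out. Calls over all genes also rose with the library-number block, as given below. For single libraries left out, the calls over all genes are not reported here. The cause was not tested.

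Sign changes were as follows. With both libraries that stood apart left out, the log2 fold change with iron against Plasmax-TE was -0.19 for EGR1 and -0.019 for MYC, and ZFP36L1 with iron against EMEM was 0.12 (0.011 with library size alone). With 1 library left out, EGR1 ran from -0.042 to 0.49 in Plasmax-TE against Plasmax and from -0.12 to 0.61 with iron against Plasmax-TE. IER2 ran from -0.02 to 0.30 in Plasmax against EMEM, -0.15 to 0.15 in Plasmax-TE against EMEM, -0.049 to 0.25 with iron against EMEM and -0.14 to 0.10 with iron against Plasmax. KLF6 ran from -0.053 to 0.14 in Plasmax against EMEM. MYC ran from -0.25 to 0.23 in Plasmax against EMEM, -0.091 to 0.36 in Plasmax-TE against EMEM, -0.14 to 0.45 in Plasmax-TE against Plasmax and -0.11 to 0.34 with iron against Plasmax-TE. ZFP36L1 ran from -0.19 to 0.13 with iron against EMEM.

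Same-numbered libraries deviated together only weakly (median r 0.0533, beside -0.0131 for different numbers, above 0.1 in 4 of 18 pairs, 7 of 12 libraries closest to their own number). No label says that equal numbers share a culture, so the replicate block pairs nothing known. The replicate block changed the call of JUN with iron against Plasmax (edgeR adjusted p = 0.074) and no other call of a member. In EMEM, Plasmax and Plasmax-TE equal replicate numbers also share a run of library numbers, so the replicate and run labels differ only in Plasmax-TE+Fe. By library-number run the median r was 0.104, above 0.1 in 9 of 18 pairs, and 12 of 12 libraries were closest to their own run, a hint from the data, since no label says that a run shares a culture or day. Each run holds 1 library of every medium, and both libraries that stood apart are in the run 85 to 88. In the pairs of media the library-number block added 4 calls of members and removed 0: ZFP36L1 (adjusted p = 0.014) and EGR1 (0.039) in Plasmax-TE against EMEM, and KLF6 with iron against Plasmax (0.037) and against EMEM (0.016). Over the 4 media together it also added EGR1. With the block, calls over all genes went from 503 to 829 in Plasmax-TE against EMEM. They went from 126 to 372 with iron against Plasmax and from 1009 to 1569 with iron against EMEM. Over the 4 media together they went from 1879 to 2835. The lowest counts were 54 for EGR1 and 65 for JUN, at a counting error of 13.6% and 12.4%.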
